A study of Mus musculus with 2 samples.

Results

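Choroid plexus is a tissue within the brain ventricles whose epithelium secretes cerebrospinal fluid. It is known for high expression of the serotonin receptor gene Htr2c and of the cation channel gene Trpm3. Both genes carry microRNAs in their introns. The 7 miRNA genes described here are Mir764, Mir1912, Mir1264, Mir1298 and Mir448 in Htr2c, Mir204 in Trpm3, and Mir211, the paralog of Mir204, in Trpm1. They were taken by gene symbol from the 2202 annotated miRNA genes, with earlier results of these data known. Small RNA (size range under 30 in the labels) was read in 2 libraries of the tissue entry "layer of hippocampus", replicate 2 and replicate 1, from male B6CASTF1/J mice (F1 hybrids of the C57BL/6 and CAST backgrounds) aged 18 to 20 months, with no treatment or genotype contrast. The labels name separate tissue entries with a shared donor entry and do not say that they came from different animals, so differences between the libraries may be technical.

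MicroRNAs are short RNAs that pair through their seed, the bases near the 5′ end, with messenger RNAs and lower their translation or stability. An intronic miRNA gene is usually cut out of the transcript of its host, so its level can follow that of the host. Htr2c encodes a G protein-coupled receptor that is also found in neurons. Trpm3 and Mir204 are also known from the pigment epithelium of the eye, and Trpm1 and Mir211 from melanocytes and retina. The tables hold only miRNA genes, so the transcripts of Htr2c, Trpm3 and Trpm1 were not measured.

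Replicate 2 had 5598792 counts on the sense strand of miRNA genes and replicate 1 had 3758318. Reads that mapped to several places made up 46.7% of all reads in replicate 2 and 51.5% in replicate 1 and entered no gene. Genes listed for neurons were well read: 10 of 14 reached 10 counts in each library, led by the activity-induced Mir132 with 15490 counts per 1000000 counted reads (CPM) in replicate 2 and 17810 in replicate 1. Mir124a-3, another gene of that list, whose copies share their mature sequence, had no count. No choroid plexus marker outside the 7 genes was fixed, so the cells behind these counts are not known.

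All 7 genes were matched to RefSeq sequences (GRCm38.p6), which list 12 mature forms with 11 different seeds for them. The mature forms of the 5 genes that reached 10 counts in each library are shown, with miR-211-5p beside its relative miR-204-5p; capitals mark the seed, bases 2 to 8, and each is written 5′ to 3′.
miR-204-5p: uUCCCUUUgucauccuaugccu
miR-211-5p: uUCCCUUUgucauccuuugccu
miR-204-3p: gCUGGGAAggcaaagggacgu
miR-1298-5p: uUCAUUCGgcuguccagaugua
miR-1298-3p: cAUCUGGGcaacugauugaacu
miR-1264-3p: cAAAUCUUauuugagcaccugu
miR-448-5p: gAACAUCCugcauagugcugcc
miR-448-3p: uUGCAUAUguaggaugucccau
miR-764-5p: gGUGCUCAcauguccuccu
miR-764-3p: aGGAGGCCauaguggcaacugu
The 5p forms of Mir204 and Mir211 share the seed UCCCUUU and 21 of 22 bases, and differ by A17U, counted from 1 at the 5′ end with the base of miR-204-5p first. No seed was shared between Htr2c genes, or between them and Mir204 or Mir211.

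The hairpins show how much of Mir204 and Mir211 is alike; capitals mark the 5p form. Both lie on the plus strand, Mir204 at chr19:22750605-22750672 and Mir211 at chr7:64205806-64205911 (GRCm38.p6).
Mir204: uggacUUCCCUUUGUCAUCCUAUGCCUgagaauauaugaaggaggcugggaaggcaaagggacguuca
Mir211: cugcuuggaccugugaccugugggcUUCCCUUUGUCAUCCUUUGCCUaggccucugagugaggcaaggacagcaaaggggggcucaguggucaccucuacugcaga
Their longest common stretch was 17 nt. The Htr2c hairpins shared at most 13 nt with any of the 2201 other annotated miRNA hairpins, and at most 8 nt with each other. None of the 7 hairpins shared 20 nt or more with another annotated hairpin. A read that stops before base 17 of the 5p form fits both Mir204 and Mir211, and how the authors' alignment treated mismatches is not given in the sources used here.

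The 5 Htr2c miRNA genes lie on the plus strand of the mm10 X chromosome, the strand of their host (chrX:146962513-147197277), and overlap no annotated exon and no antisense gene. Mir764 (ENSMUSG00000076458.1) is at chrX:147002259-147002366, 39.7 kb from the annotated start of Htr2c. Mir1912 (ENSMUSG00000093039.1, chrX:147009441-147009527) and Mir1264 (ENSMUSG00000093122.1, chrX:147010601-147010686) follow 46.9 and 48.1 kb from the start and are only 1073 nt apart. Mir1298 (ENSMUSG00000080331.1, chrX:147064905-147065002) is at 102.4 kb, still in the same intron as the other three, which is intron 2 of 5 in the longest coding transcript and 90779 nt long. Mir448 (ENSMUSG00000065450.1, chrX:147158210-147158321) is at 195.7 kb in intron 4. Across the 156.1 kb from Mir764 to Mir448, the genes therefore sit in 2 introns and at unequal distances. Mir204 (ENSMUSG00000065507.3) and Mir211 (ENSMUSG00000065585.1) each lie in intron 6 of the longest coding transcript of their host, 611.6 kb from the start of Trpm3 and 52.0 kb from the start of Trpm1.

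**Figure D1:**
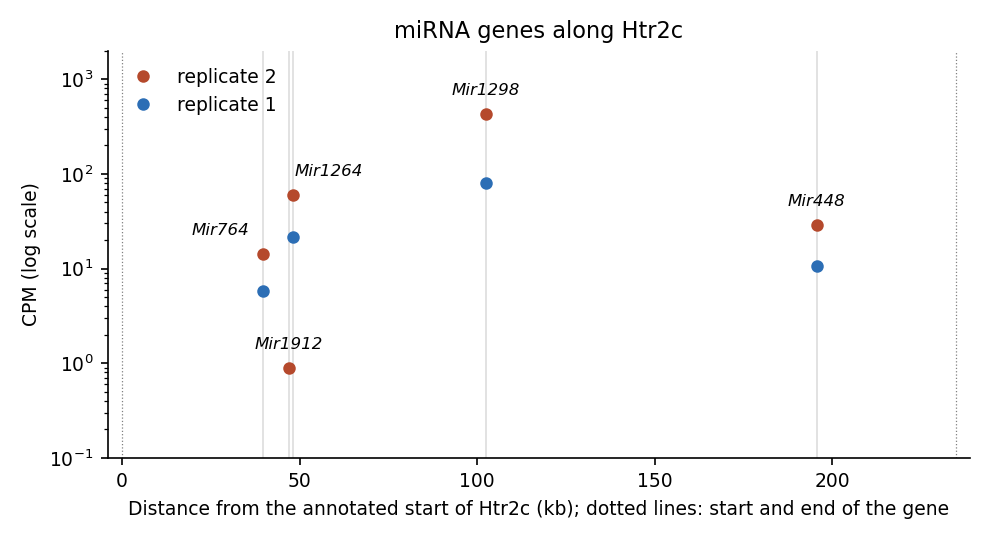
CPM (log scale) of the 5 miRNA genes against their distance from the annotated start of Htr2c in kb, for replicate 2 and replicate 1; grey lines mark the hairpins and Mir1912 has no point for replicate 1, where its count was 0. Mir1298, at 102.4 kb, stands highest in both libraries.

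Mir204 was the highest of the 7 genes, and Mir1298 led the Htr2c genes. Counting each miRNA gene by its reads, each about the length of a mature microRNA, levels are given as CPM of the sense counts over all miRNA genes. Intervals are 95% and hold counting error alone; no molecular identifiers are reported, so a molecule may be read more than once. The 7 genes together had 1570 CPM in replicate 2, against 878.6 CPM in replicate 1, that is 0.157% and 0.0879% of the counted reads. The 2 libraries held very different amounts of the Htr2c genes, whose sum was 531.7 CPM in replicate 2 against 118.9 CPM in replicate 1. In bulk tissue, fewer cells of a type and less RNA per cell cannot be told apart.

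Mir204, a microRNA of choroid plexus and eye epithelium, had 5810 counts in replicate 2 and 2852 in replicate 1. These were 1038 CPM (exact Poisson interval 1011 to 1065) and 758.9 CPM (731.3 to 787.2), or 898 ± 197 CPM (mean ± SD, n = 2 here and below). Among all miRNA genes Mir204 ranked 93 in replicate 2 and 92 in replicate 1, so its place barely differed.

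Mir211 had 4 counts in replicate 2 and 3 in replicate 1, or 0.714 CPM (0.195 to 1.83) and 0.798 CPM (0.165 to 2.33), and 0.756 ± 0.0593 CPM on average. The intervals overlap almost fully. Counts of Mir204 outnumbered those of Mir211 by 1450 to 1 in replicate 2 (exact binomial interval 567 to 5330) and by 951 to 1 in replicate 1 (325 to 4610). The reads of Mir211 are few enough that their share depends on how reads fitting either gene were placed. Nearly all counts of this pair of paralogs were thus assigned to Mir204 in each library. Counts are per gene and do not separate the arms of a hairpin, whose seeds differ. How many of these counts carry the shared seed is therefore not known.

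Mir1298 had 2397 counts in replicate 2 and 304 in replicate 1. These were 428.1 CPM (411.2 to 445.6), rank 129, and 80.9 CPM (72.1 to 90.5), rank 193, and 254.5 ± 245.5 CPM on average. Replicate 2 was far above replicate 1, and the SD was close to the mean.

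Mir1264 had 335 counts (59.8 CPM, 53.6 to 66.6) in replicate 2 and 81 counts (21.6 CPM, 17.1 to 26.8) in replicate 1, with a mean of 40.7 ± 27.1 CPM. Mir448 had 161 counts (28.8 CPM, 24.5 to 33.6) in replicate 2 and 40 counts (10.6 CPM, 7.60 to 14.5) in replicate 1, with a mean of 19.7 ± 12.8 CPM. Mir764 had 79 counts (14.1 CPM, 11.2 to 17.6) in replicate 2 and 22 counts (5.85 CPM, 3.67 to 8.86) in replicate 1, with a mean of 9.98 ± 5.84 CPM. For each of these 3 genes replicate 2 was higher and the intervals of the libraries were apart.

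Mir1912, which lies 1073 nt from Mir1264, had 5 counts in replicate 2 (0.893 CPM, 0.290 to 2.08) and 0 counts in replicate 1 (two-sided interval 0 to 0.982 CPM). The limit that a count of 0 allows, set at 3 counts, is 0.798 CPM there. A difference in Mir1912 was not detectable at this depth. Next to it, Mir1264 had 335 and 81 counts in replicates 2 and 1.

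The order of levels, Mir204, Mir1298, Mir1264, Mir448 and Mir764, was the same in replicate 2 and in replicate 1. It was also the same per 100 nt of annotated hairpin, where Mir204 had 1526 CPM in replicate 2 and 1116 CPM in replicate 1 and Mir764 had 13.1 and 5.42 CPM. Taken across the 2 libraries, the CPM of Mir1264 overlapped those of Mir448, and those of Mir448 overlapped those of Mir764, each of the 3 being lower in replicate 1. Those of Mir204 and Mir1298, and of Mir1298 and Mir1264, did not overlap. Within each library, Mir1264 outnumbered Mir448 and Mir448 outnumbered Mir764 beyond counting error, as the count ratios given further on show.

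**Figure D2:**
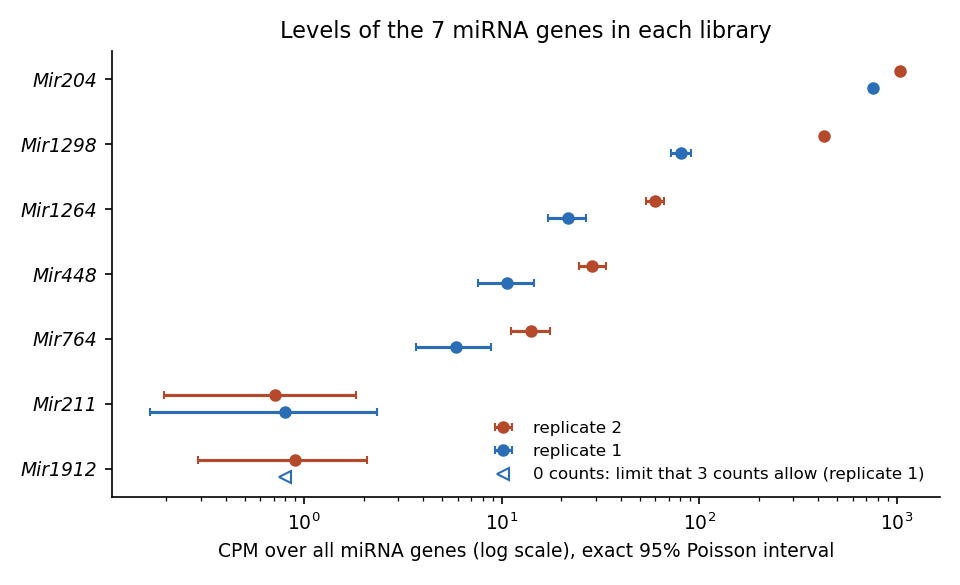
CPM (log scale) of each gene in replicate 2 and replicate 1 with exact 95% Poisson intervals; the open triangle is the limit of 0.798 CPM that a count of 0 allows for Mir1912 in replicate 1. Mir204 had 1038 and 758.9 CPM, and Mir1298 had 428.1 and 80.9 CPM.

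Mir1298 held most of the Htr2c counts, and more of them in replicate 2. Of the 2977 counts of the 5 genes in replicate 2, Mir1298 held 80.5% (Wilson 95% interval 79.1 to 81.9%), against 68.0% (63.5 to 72.2%) of 447 counts in replicate 1. The intervals were apart. Mir1264 held 11.3% (10.2 to 12.4%) in replicate 2 and 18.1% (14.8 to 22.0%) in replicate 1. Mir448 held 5.41% (4.65 to 6.28%) in replicate 2 and 8.95% (6.64 to 12.0%) in replicate 1, and Mir764 held 2.65% (2.13 to 3.29%) and 4.92% (3.27 to 7.34%). No test of these shares was made, and the values describe these libraries.

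Ratios between genes of the same library do not depend on how libraries are scaled to each other. Mir1264 to Mir448 was 2.08 (exact binomial interval 1.72 to 2.53) in replicate 2 and 2.02 (1.37 to 3.04) in replicate 1. Mir448 to Mir764 was 2.04 (1.55 to 2.70) in replicate 2 and 1.82 (1.05 to 3.21) in replicate 1. The ratios among these 3 genes thus had overlapping intervals in the 2 libraries. Mir448 lies in another intron than Mir764 and Mir1264. Mir1298 to Mir448 was 14.9 (12.7 to 17.6) in replicate 2 and 7.60 (5.45 to 10.9) in replicate 1. Mir1298 to Mir1264, which lie in the same intron, was 7.16 (6.38 to 8.05) in replicate 2 and 3.75 (2.93 to 4.86) in replicate 1. A part of intron position in these ratios was not tested. For Mir1298 the intervals of the libraries did not overlap in either ratio.

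**Figure D3:**
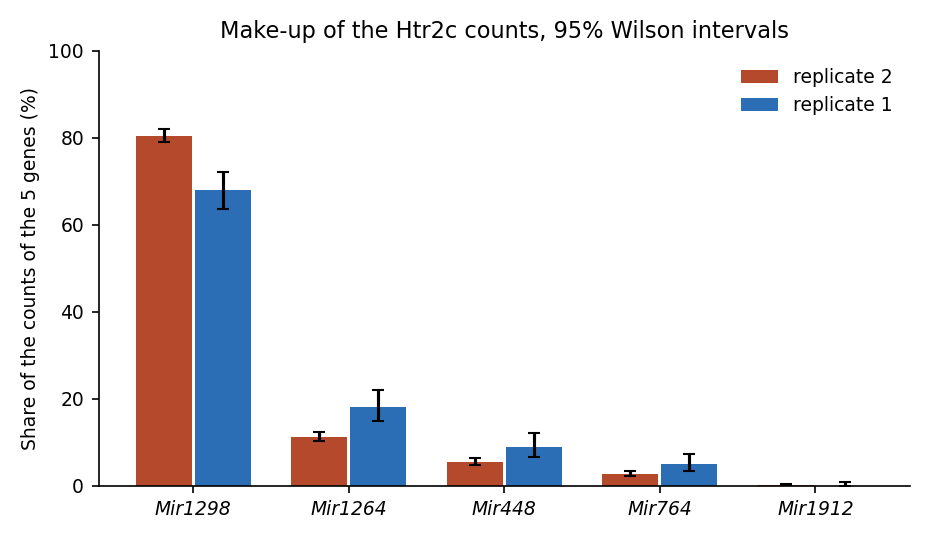
Share (%) of each gene in the summed counts of the 5 Htr2c miRNA genes, as bars for replicate 2 and replicate 1 with Wilson 95% intervals. Mir1298 held 80.5% in replicate 2 and 68.0% in replicate 1, and the bars of Mir1264, Mir448 and Mir764 are lower in replicate 2.

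The 4 tested Htr2c genes were 1.94-fold to 4.25-fold higher in replicate 2, while Mir204 was 1.10-fold higher. The difference between libraries was tested per gene with an exact two-sided binomial test on the counts, scaled by TMM (a scaling to the bulk of genes, from edgeR) and adjusted by Benjamini-Hochberg over the 384 genes that reached 10 counts in each library. The test sets counting error against the difference of 2 libraries and says nothing about conditions. Of the 7 genes, 5 passed that count limit, and Mir1912 and Mir211 were not tested. All 5 were called higher in replicate 2 at an adjusted p under 0.05, beside 65.1% of all tested genes called in either direction, 31.0% higher in replicate 2 and 34.1% higher in replicate 1. So many genes were called that a call alone says little, and the size of the ratio is the more useful value.

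Mir1298 was 4.25-fold higher in replicate 2 on the TMM scale (counting interval 3.77 to 4.80; adjusted p = 1.05e-175, exact binomial test), the largest such ratio among the 384 genes. Mir1264 was 2.23-fold higher (1.74 to 2.88; adjusted p = 1.38e-11, exact binomial test) and Mir448 2.17-fold higher (1.53 to 3.15; adjusted p = 8.11e-06, exact binomial test). Mir764 was 1.94-fold higher (1.19 to 3.26; adjusted p = 0.00791, exact binomial test). These values placed Mir1264, Mir448 and Mir764 above 95.1%, 94.3% and 92.2% of the tested genes. Of the 5 tested members, 3 were called and at least 2-fold higher in replicate 2, beside 6.77% of all tested genes. Genes in introns of the same host are not independent observations.

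Mir204 was 1.10-fold higher in replicate 2 (counting interval 1.05 to 1.15; adjusted p = 8.22e-05, exact binomial test). On the log2 scale this was 0.13, against a median absolute difference of 0.44 over all tested genes, and 17.2% of them differed less. The difference of Mir204 was past counting error but smaller than the usual difference between these libraries. The Htr2c genes without Mir1298 summed to 580 counts in replicate 2 and 143 in replicate 1, a 2.19-fold difference. The median log2 ratio of the 5 tested members was 1.12 and that of all tested genes -0.01.

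CPM ratios run 1.25 times higher than TMM ratios, because total counts put the median log2 ratio of all tested genes at 0.31. In CPM the ratio of replicate 2 over replicate 1 was 5.29 for Mir1298, 2.78 for Mir1264, 2.70 for Mir448, 2.41 for Mir764 and 1.37 for Mir204. With TMM, 119 of all tested genes were called in favour of replicate 2 and 131 of replicate 1, and with total counts 195 and 76. The direction of the 5 members was the same on both scales.

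**Figure D4:**
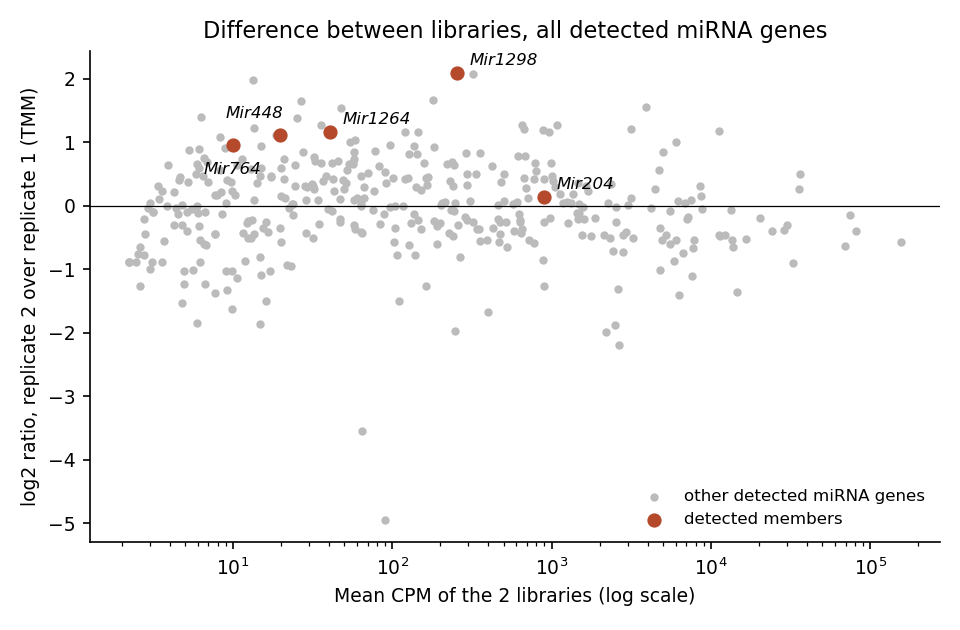
Log2 ratio of replicate 2 over replicate 1 (TMM) against mean CPM (log scale) for the 384 tested genes, with the 5 tested members in red. Mir1298 is the highest point at 2.09, Mir1264, Mir448 and Mir764 lie at 1.16, 1.12 and 0.95, and Mir204 lies at 0.13 among the bulk of genes.

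With 2 libraries, a pattern is a single ratio, so genes were likened to Mir1298 and Mir204 by the nearest TMM log2 ratio among the 241 other genes that reached 100 counts in each library. Nearest to Mir1298 (2.09) were Mir106b of an autosomal cluster (2.07, with 3018 counts in replicate 2 and 388 in replicate 1), Mir339 (1.67) and Mir149 (1.56). Nearest to Mir204 (0.13) were Mir455 (0.13), Mir669o (0.12) and Mir429 (0.12). None of the 6 lies on chromosome X.

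The other genes on chromosome X were mostly called toward replicate 1 on the TMM scale, but about equally often each way with total counts. Of the 32 that were tested, 6 calls favoured replicate 2 and 18 replicate 1, with a median log2 ratio of -0.35. Of all 384 tested genes, 119 calls favoured replicate 2 and 131 replicate 1. With total counts 9 calls on chromosome X favoured replicate 2 and 8 replicate 1, beside 195 and 76 of all tested genes. The highest of the X genes in level was Mir221 of a cluster linked to cell proliferation. It had 9650 CPM in replicate 2 and 8046 CPM in replicate 1 (0.963-fold on the TMM scale). The let-7 relative Mir98 came next with 7177 and 8414 CPM (0.685-fold). Among the 6 X genes called toward replicate 2 were Mir222, of the cluster of Mir221, Mir500 and Mir504. Their TMM log2 ratios were 1.20, 1.16 and 1.11, near those of Mir1264 (1.16) and Mir448 (1.12).

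Genes of the multiciliated, epithelium and sensory cluster lists were set beside the 7 genes. The calls of these lists and of every further list are to be read against the 384 tested genes as a whole. On the TMM scale, calls toward replicate 2 took in 31.0% of the tested genes, and calls toward replicate 1 took in 34.1%. With total counts, 195 tested genes had a call toward replicate 2 and 76 toward replicate 1. The multiciliated list, for ependyma, had a sum of 1618 CPM in replicate 2, against 1249 CPM in replicate 1, a 1.04-fold difference on the TMM scale. Of its 5 genes 3 were tested, 1 was called higher in replicate 2 and none in replicate 1, and Mir449b and Mir449c had no count. Its leading gene Mir34c had 1491 CPM in replicate 2 and 1165 CPM in replicate 1 (1.03-fold; adjusted p = 0.189, exact binomial test), and Mir449a had 71.4 and 56.4 CPM (1.02-fold; adjusted p = 0.905, exact binomial test). With total counts in place of TMM, all 3 tested genes were called higher in replicate 2. The epithelium list (6 of 7 tested, 2 called higher in replicate 2 and 1 in replicate 1) had a sum of 318.5 CPM in replicate 2, against 339.0 CPM in replicate 1, led by the skin gene Mir203 with 111.1 and 215.3 CPM and by Mir429 with 68.9 and 51.1 CPM. With total counts 4 epithelium genes were called in favour of replicate 2 and 1 of replicate 1. The sensory cluster (2 of 3 tested, 1 called higher in replicate 2) had a sum of 167.0 CPM in replicate 2, against 108.6 CPM in replicate 1, with Mir182 at 90.7 and 50.8 CPM and Mir183 at 70.7 and 57.2 CPM, and both were called with total counts.

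The tested genes listed for vessels were called higher in replicate 1, and the only tested gene listed for stroma in replicate 2. The endothelial and mural list had 3 of 5 genes tested, each called higher in replicate 1, beside 34.1% of all tested genes. Its sum was 16510 CPM in replicate 2, against 22050 CPM in replicate 1, while Mir126b had no count. The endothelial gene Mir126a had 10730 and 11850 CPM in replicates 2 and 1, and the smooth muscle gene Mir143 had 5562 and 9621 CPM. Of the fibroblast and meninges list only Mir214 was tested, with 124 counts in replicate 2 and 17 in replicate 1 (3.93-fold higher in replicate 2; adjusted p = 2.13e-09, exact binomial test), and it is not tested at a limit of 20 counts. Mir199b of that list had 3 and 4 counts, and Mir199a-1 and Mir199a-2 had none, so the summed 22.7 CPM in replicate 2 and 5.59 CPM in replicate 1 came almost wholly from Mir214. The part of these cell types in the difference of the Htr2c genes was not tested.

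Lists for the main brain cells and for blood held calls in both directions, and calls of either direction took in 65.1% of all tested genes. The neuron list had a sum of 53290 CPM in replicate 2, against 51520 CPM in replicate 1, with 3 genes called higher in replicate 2 and 7 in replicate 1 on the TMM scale, but 5 and 4 with total counts. Its second gene Mir128-1 had 14430 and 12180 CPM. The astrocyte list had 4 of 4 genes tested and 2 called each way, or 3 for replicate 2 and 1 for replicate 1 with total counts. Its sum was 23610 CPM in replicate 2, against 22070 CPM in replicate 1, but was 0.859-fold on the TMM scale. Mir29a had 21310 and 19510 CPM, but was 0.877-fold and called higher in replicate 1 on the TMM scale. Mir29c had 2167 and 2481 CPM (0.701-fold). The oligodendrocyte list had 2 of 3 genes tested and 1 called each way. Its sum was 9710 CPM in replicate 2, against 6092 CPM in replicate 1 (1.28-fold on the TMM scale). Mir338 had 6890 and 3083 CPM, and Mir219a-2 had 2815 and 3007 CPM. With unstranded counts neither oligodendrocyte gene was called and the mean sum of the list was 0.193 CPM, against 7901 CPM. The blood and leukocyte list (6 of 6 tested, 1 called higher in replicate 2, or 0 with unstranded counts, and 3 in replicate 1) had a sum of 1453 CPM in replicate 2, against 1529 CPM in replicate 1, with the lymphocyte gene Mir150 at 637.3 and 659.3 CPM and Mir146 at 614.8 and 664.7 CPM.

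**Figure D5:**
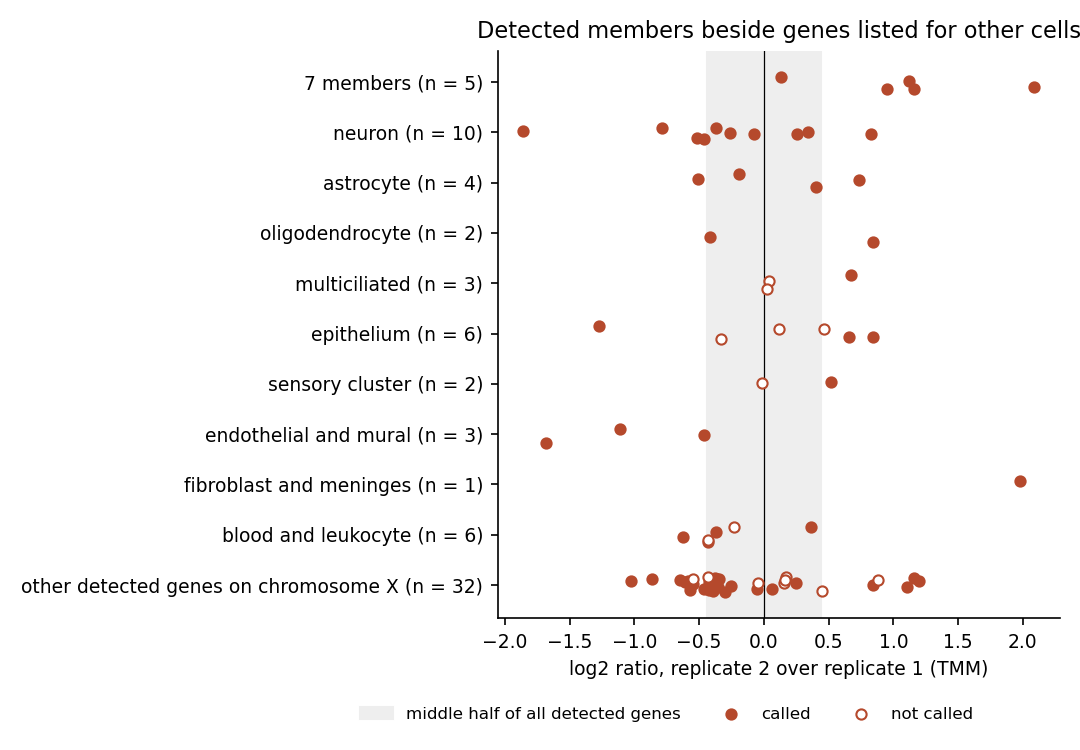
Log2 ratio of replicate 2 over replicate 1 (TMM) of the tested members and of the tested genes of each list; filled points were called at an adjusted p under 0.05, and the grey band runs over the interquartile range of all 384 tested genes, -0.44 to 0.44. The 4 Htr2c genes lie right of the band and Mir204 lies inside it.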

How the data were processed

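The authors deposited unnormalized counts of reads for every miRNA gene, made on mm10 with GENCODE annotation M21, per the labels and deposited text. No aligner or counter is named in the sources used here. The column of sense counts was fixed by its place. Its total was the larger of the 2 stranded columns in each library, with 5598792 against 425273 counts in replicate 2. The summary lines (65.3% of reads in replicate 2, 64.5% in replicate 1) stayed out of library sizes and tests.

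Symbols, positions and hairpins came from GENCODE M21, which is on the same build, and printed sequences from RefSeq (GRCm38.p6). Detection meant 10 or more counts in each library. TMM factors came from edgeR 4.0.16 and size factors from DESeq2 1.42.0. Tests and intervals used scipy 1.17.1 and statsmodels 0.14.6, and the test was checked on simulated data. The simulated counts varied by counting error and set fold changes alone, so that check does not cover other spread between libraries. With 1 group, no quasi-likelihood contrast could be fitted.

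The 7 members and the lists were chosen with earlier results of these data known. Genes named were the members, the 3 nearest in ratio to Mir1298 and to Mir204, and the 2 highest of each list. Single genes at 0, and Mir222, Mir500 and Mir504, were added after their values were seen. The alternatives were unstranded counts, other scalings, filters, denominators and tests, a pseudocount, and leaving out a replicate.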

Additional observations from a re-analysis of the deposited data

How the results depend on the processing

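No paired analysis was possible because there is 1 group of 2 libraries. The count of 5 members called higher in replicate 2 was the same under all 7 alternatives, and the log2 ratio ranged from 2.08 to 2.40 for Mir1298, 1.12 to 1.47 for Mir1264, 1.06 to 1.43 for Mir448, 0.86 to 1.27 for Mir764 and 0.13 to 0.45 for Mir204. The pseudocount enters the ratio alone and could not change a call. Unstranded counts of the members equalled their sense counts, so only scaling and adjustment could differ there. The number of all genes called was 228 to 271, against 250. The summed level of 1224 ± 489 CPM was 428.3 CPM when all reads were the denominator, 1325 with unstranded counts, 1445 without the most abundant gene, and between 878.6 and 1570 when a replicate was left out. The Mir1298 share of Htr2c counts averaged 74.3% and was between 68.0% and 80.5% when a replicate was left out. The other X genes called higher in replicate 1 fell to 8 with total counts, against 18, while those among all tested genes fell to 76, against 131. With unstranded counts the summed level was 8649 CPM for the endothelial and mural list, against 19280 CPM. Of all values for single genes and lists under 1 alternative each, 41 moved, a level or share by more than 1 SD between the libraries or a count of calls by over 1.5 times. The other 238 did not move by the limits used. Levels and shares with a replicate left out could not move, as each of 2 values always lies within 1 SD of their mean. Ratios of single members were judged by their sign and call alone. The limits are wide where the SD is near the mean, as for Mir1298, whose level was 88.6 CPM over all reads against 254.5 CPM. No ratio of the 5 tested members changed sign. Some listed genes did: Mir221 was 0.963-fold on the TMM scale but had 9650 CPM in replicate 2 and 8046 CPM in replicate 1. Depth limited Mir1912 and Mir211, with at most 5 counts each.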

Other observations

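Of the mature forms in the RefSeq table, those outside the 7 genes that carry the seed of a member came from genes with few or no counts. Mir7670, whose 3p form has the seed of miR-204-5p, had 0 counts in replicate 2 and in replicate 1. Mir7684, whose 5p form has the seed of miR-204-3p, had none either. Mir7062, whose 5p form has the seed of miR-764-3p, had 7 counts in replicate 2 and 0 in replicate 1. These genes were named after their values were seen.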
